A study of Mus musculus with 6 samples.

Results

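Carcinoma in situ of the mouse bladder was set against normal urothelium on expression arrays. The comparison took the 2 arrays titled carcinoma in situ and the 2 titled normal urothelium, 4 of the 6 arrays of the study, and covered 18193 genes, each read through its probe set with the highest mean signal over the 6 arrays. The normal arrays came from mice labelled as wild type. The in situ arrays came from mice labelled H-ras+/-, p53-/- and called double transgene in the titles. The 2 arrays of invasive carcinoma carried the same genotype label and entered the fit for the estimate of the spread. Every mouse was of the FVB/N strain and 8 months old, an age by which, per the labels, the altered mice bore high-grade invasive bladder tumours. Cells were lifted by laser capture from frozen, stained sections, so each array reports the captured patch of tissue. The labels name no promoter for the transgene and no animal for any array. Lesion and genotype changed together between the groups and cannot be told apart here.

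The urothelium is a layered epithelium in which basal cells renew the tissue and umbrella cells, coated with uroplakin plaques, seal the bladder against urine. Carcinoma in situ is a flat lesion of high-grade cells that has not crossed the basement membrane. H-Ras passes growth factor signals to the kinase ERK, and p53 is a transcription factor that halts division or triggers death after damage.

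In carcinoma in situ, 9 of 17 genes listed as ERK feedback inhibitors or ERK-induced factors rose (52.9%, against 5.74% of all genes), among them Dusp6. Cyclin D genes, neutrophil chemokine genes such as Cxcl3, interferon-stimulated genes and several genes of glycolysis rose too. Several genes of cholesterol synthesis, the sodium channel genes Scnn1g and Scnn1b, the prostaglandin-degrading enzyme gene Hpgd and the imprinted noncoding RNA Meg3 fell. Markers of endothelial cells rose with them, and the median change of mesothelial markers was below 0. Genes of chromosome 12 were shifted down as a group.

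In the limma fit, with p-values adjusted after Benjamini and Hochberg, 1597 of 18193 genes passed an adjusted p of 0.05, which is 8.78%. Of these 1044 rose (5.74%) and 553 fell (3.04%). The counts per list below are to be read against these shares. The arrays of 9896 genes (54.4%) did not overlap between groups, with both in situ arrays above both normal arrays for 5331 genes (29.3%) and below them for 4565 (25.1%). The gap between the groups exceeded 1 log2 unit upwards for 805 genes (4.42%) and downwards for 394 (2.17%). The means were over 2-fold higher for 1462 genes (8.04%) and over 2-fold lower for 853 (4.69%). Changes are differences of mean log2 signal ± the standard error of the fit, so that 1 unit is a 2-fold change. All 1597 called genes had groups that did not overlap, so that the separation of a called gene adds nothing to its call. Of 236 called genes named by rule 120 had other probe sets, and for 66 of these no other probe set was called, while none was called in the opposite direction. The median change was 1.47 among the risen genes and -1.40 among the fallen, against 0.007 over all genes. The paired arrays lay unequally close, the log2 difference within a pair having a standard deviation across genes of 0.22 for the in situ arrays, 0.69 for the normal arrays and 0.42 for the invasive arrays. Over 2-fold apart were 8 genes (0.044%) between the in situ arrays and 13.7% of genes between the normal arrays. Whether the in situ arrays are separate animals or repeats of 1 sample is not stated in the labels. Without in situ array 1 limma called 0 genes (2347 at an unadjusted p under 0.05), without in situ array 2 it called 0 (2443), and with both averaged to 1 sample it called 0 (2320). It called 4196 without normal array 1, 3110 without normal array 2 and 947 without either invasive array, which equals the count from the 4 arrays alone. Every count of called genes given here rests on that spread, and an exact permutation test of 2 against 2 arrays cannot go below a two-sided p of 0.333.

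**Figure D1:**
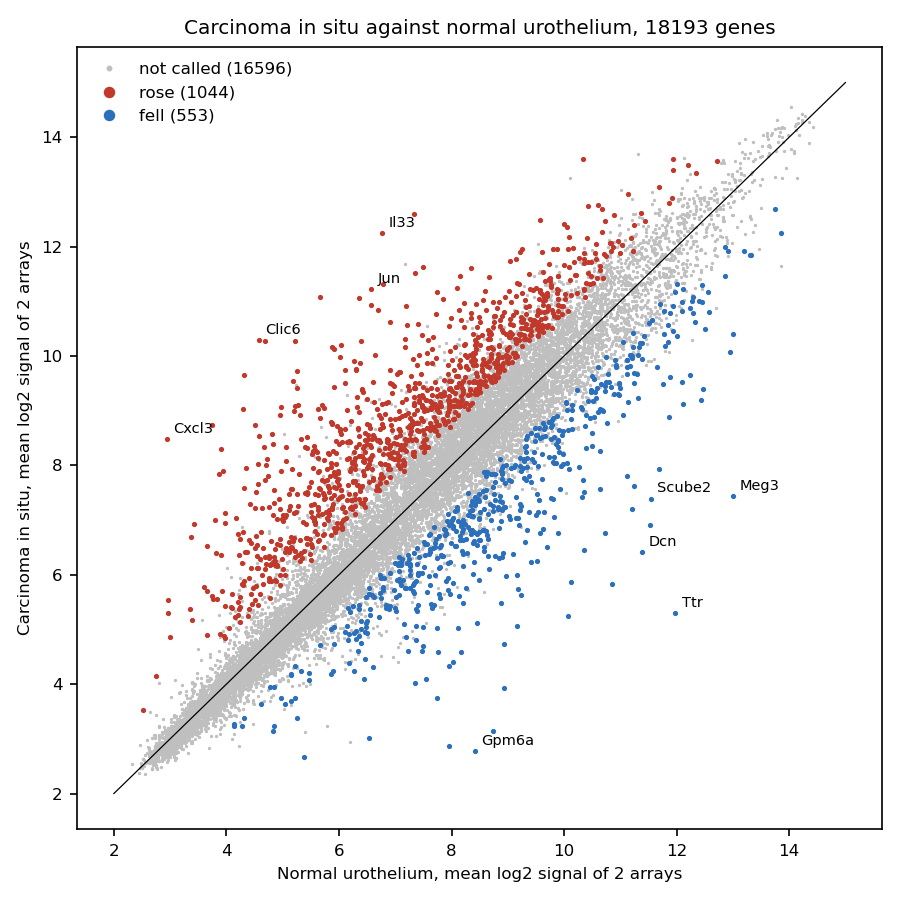
Mean log2 signal of 18193 genes in the 2 normal arrays (horizontal axis) and the 2 in situ arrays (vertical axis); each point is a gene, red where it rose (1044), blue where it fell (553) and grey where it was not called. Clic6, Cxcl3 and Il33 stand far above the line of equal signal and Ttr far below it.

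The tissue label was checked against markers. Upk1b, a uroplakin, read 14.39 and 13.89 in the normal arrays and 13.16 and 13.34 in the in situ arrays, and Krt5, the keratin of basal urothelium, read 12.52 and 11.76 against 13.57 and 13.68. Foxa1 (between 11.65 and 12.73), Gata3 (between 10.79 and 11.37) and Pparg (between 9.21 and 10.89), transcription factors of urothelial cells, also had signal in every array, and none of these 5 genes passed the test. In captured tissue fewer cells of a type and less RNA per cell cannot be told apart. Of the 5 uroplakin genes 0 rose and 2 fell, with a median change of -2.08. Of 20 keratin genes 4 rose and 1 fell (median 0.52), and of 43 mitosis genes 29 rose and 0 fell (median 1.51). Sex also differed between the groups. The Y-linked genes Kdm5d, Eif2s3y and Uty fell by 5.08, 5.01 and 3.57 and stood at 2.84 to 5.02 in the in situ arrays, whereas the X-inactivating RNA Xist stood at 6.85 and 13.37 in normal arrays 1 and 2 and at 13.17 and 13.33 in the in situ arrays. The part of sex in the results below was not tested, and normal array 2 carried signal of Xist and of the Y chromosome together.

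Clic6 had the largest rise outside the keratin, uroplakin and mitosis genes. This gene of the chloride intracellular channel family read 4.70 and 4.46 in the normal arrays and 10.11 and 10.47 in the in situ arrays, a rise of 5.71 ± 0.47 or 52.3-fold (limma, adjusted p = 0.00515). Il33, an alarmin stored in the nuclei of barrier cells, read 7.01 and 6.53 against 12.21 and 12.30 and rose 44.8-fold. Ubd, a ubiquitin-like modifier that marks proteins for the proteasome, read 4.86 and 4.52 against 10.24 and 10.31. In each of these genes both in situ arrays lay far above both normal arrays, the gap between the groups being 5.40, 5.20 and 5.39, while 184 of all genes (1.01%) had a gap of over 2 units upwards. The rest of the 20 largest rises outside the keratin, uroplakin and mitosis genes ran from 5.53 down to 4.15. They included Nptx1, a secreted pentraxin best known from synapses (5.34 ± 0.43), Csta1, an inhibitor of cysteine proteases (4.97 ± 0.54), and Nupr1, a stress-induced chromatin protein (4.71 ± 0.17). Celsr1, a cadherin of planar polarity (4.39 ± 0.48), Gpihbp1, the endothelial anchor of lipoprotein lipase (4.21 ± 0.31), and Kitl, the ligand of the receptor Kit (4.15 ± 0.56), were also among them. Among the 20 were also the chemokine genes Cxcl3, Ppbp and Cxcl5, the AP-1 gene Jun and the leukocyte gene Cd53, and Tmigd1, Ctla2a, Lipm, Rasl10a and Atp6v0d2, which rose by 4.16 to 4.37. From under 5 in both normal arrays to over 8 in both in situ arrays moved 11 genes, with Plscr1, a phospholipid scramblase (3.95 ± 0.31), and Arg1, the arginase of the urea cycle (3.77 ± 0.45), at the lower end.

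The 20 largest falls were of genes with varied roles. Ttr, the thyroid hormone carrier transthyretin, read 11.87 and 12.09 in the normal arrays and 5.36 and 5.24 in the in situ arrays, a fall of 6.68 ± 0.23 on the log2 scale (limma, adjusted p = 0.00227), and its groups were 6.51 units apart. Gt(ROSA)26Sor, a broadly expressed noncoding transcript, read 9.27 and 8.21 against 2.96 and 3.33. Beside these the invasive arrays, of the same genotype label, read 8.79 and 7.78 for Gt(ROSA)26Sor and 5.01 and 5.56 for Ttr. A gap of over 2 units downwards was found for 67 of all genes (0.368%). Scube2, a secreted protein that helps release Hedgehog ligands, read 11.45 and 11.64 against 7.37 and 7.41. Htr4, a serotonin receptor (-4.82 ± 0.41), Slc47a1, an exporter of organic cations (-3.99 ± 0.39), Tmprss11a, a membrane serine protease (-3.96 ± 0.25), and Cntnap2, a neurexin family adhesion protein (-3.75 ± 0.27), fell as well. So did Dmgdh (-4.10 ± 0.21) and Bhmt2 (-3.62 ± 0.22), both enzymes of betaine and methionine metabolism, Pak3, a kinase activated by Rac and Cdc42 (-4.01 ± 0.37), and Rsph4a, a radial spoke protein of cilia (-3.64 ± 0.36). Prg4, the lubricant proteoglycan of joints and serosal linings (-4.20 ± 0.31), Gpm6a (-5.65 ± 0.55), Dcn (-4.99 ± 0.32), Saa3 (-4.60 ± 0.71) and Fhl1 (-3.91 ± 0.29) are also markers of cells other than the urothelium or are shared with them. A second probe set of Htr4 changed by 0.03 and one of Fhl1 by 0.01, and neither was called.

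**Figure D2:**
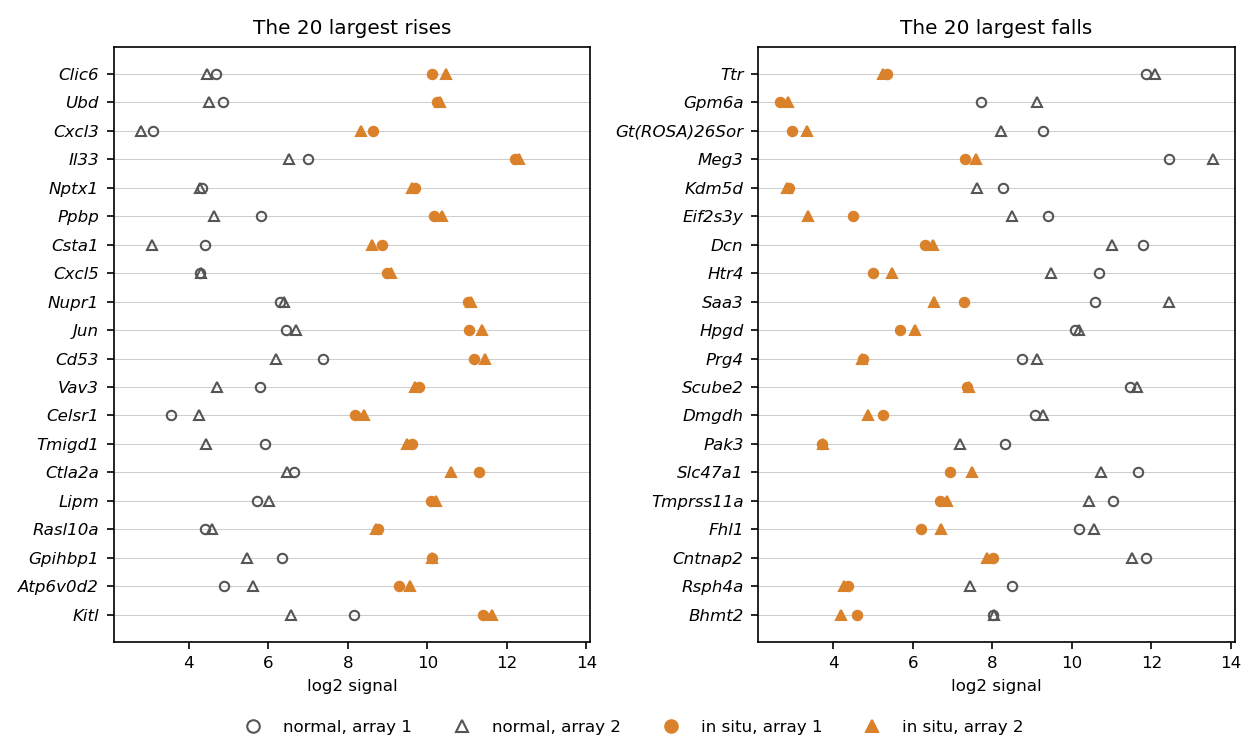
Log2 signal of each normal array (open symbols) and each in situ array (filled symbols) for the 20 largest rises and the 20 largest falls, 1 gene per row. Rows were chosen among genes whose groups do not overlap, and the gap is 3.24 units for Kitl and 6.51 for Ttr.

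The list of ERK feedback inhibitors and ERK-induced factors had the highest median change of the pathway lists. All lists were chosen with earlier results of these data known, so this rank only describes them. Of 17 genes measured in the ERK list 9 rose (52.9%, against 5.74% of all genes) and 0 fell. Their median change was 1.63, and 15 had both in situ arrays above both normal arrays. Dusp6, the phosphatase that switches ERK off, read 8.15 and 6.84 in the normal arrays and 11.49 and 11.74 in the in situ arrays, a rise of 4.12 ± 0.44 (17.4-fold). The ETS factor gene Etv5, a target of ERK, read 6.88 and 5.79 against 8.56 and 8.77. Dusp10, a phosphatase for the stress kinases, rose by 2.09 ± 0.31, Spred3, an inhibitor of Ras to Raf signalling, by 2.03 ± 0.37, and Ier3, an early response gene, by 1.94 ± 0.28 (limma, adjusted p from 0.00851 to 0.0321 for these 5). The second Dusp10 probe set changed by -0.06. Among 20 early response transcription factor genes 6 rose and 0 fell (median 0.62). Jun, a subunit of AP-1, read 6.45 and 6.69 against 11.06 and 11.37 and rose 25.1-fold, Egr1, a zinc finger factor, rose by 2.92 ± 0.26, and Junb by 1.55 ± 0.25. Ier2 (1.89 ± 0.16) and Fosl1 (1.38 ± 0.20) also rose, whereas Fos, the usual partner of Jun, changed by -0.07.

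Cell cycle entry genes rose on both the driving and the braking side. Of 20 G1 cyclin, kinase and inhibitor genes 9 rose and 0 fell (median 0.79). Ccnd1, cyclin D1, read 9.16 and 9.26 in the normal arrays and 11.87 and 11.95 in the in situ arrays and rose 6.49-fold (limma, adjusted p = 0.0033), and Ccnd3 (1.55 ± 0.16) and Ccne2 (1.26 ± 0.24), a D-type and an E-type cyclin, rose beside it. The inhibitor gene Cdkn2a, a tumour suppressor locus, read 4.41 and 5.99 against 9.12 and 8.89 and rose by 3.81 ± 0.53. Cdkn1a, which blocks cyclin-dependent kinases and is known as a p53 target, read 9.64 and 9.56 against 11.17 and 11.09. The other Cdkn1a probe set changed by 1.81 and was not called. Other Ccnd3 probe sets changed by -0.39 to -0.33 and were not called. Among 30 genes known as p53 targets 6 rose and 0 fell, with a median of 0.29. Phlda3, an inhibitor of Akt, rose by 2.07 ± 0.25, Gadd45a, a stress sensor of the damage response, by 1.75 ± 0.31, Ccng1 by 1.22 ± 0.21 and Gadd45b by 0.98 ± 0.19, in tissue labelled as lacking p53. Of 35 Bcl2 family, caspase and death receptor genes 4 rose and 0 fell (median 0.19), which were Bok (2.06 ± 0.29), a pro-apoptotic Bcl2 relative, Casp12 (1.92 ± 0.15), Casp1 (1.32 ± 0.19), the inflammasome caspase, and Cflar (1.27 ± 0.26), an inhibitor of death receptor signalling. Of 40 DNA damage and repair genes 5 rose and 1 fell (median 0.27), Ung, which removes uracil from DNA, rising by 1.79 ± 0.19 and the X-linked Fancb of the crosslink repair complex changing by -1.70 ± 0.15. In a list of 42 chromatin regulators 6 rose and 1 fell (median 0.29). There Uhrf1, which guides maintenance DNA methylation, read 6.60 and 6.39 against 9.36 and 9.08, the histone chaperone gene Chaf1b rose by 1.89 ± 0.17, and Hmga2, an architectural protein of embryonic and tumour cells, by 1.82 ± 0.22. The second Chaf1b probe set changed by 0.09 and was not called.

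Growth factor lists other than the ERK list held called genes in both directions, with medians from -0.23 to 0.02. Their risen shares ran from 5% to 11.8% and their fallen shares from 3.23% to 20%, against 5.74% and 3.04% of all genes. Of 17 EGF family receptor, ligand and shedding genes 2 rose and 2 fell (median -0.08). Hbegf, a ligand of the EGF receptor, read 9.38 and 8.52 in the normal arrays and 11.12 and 11.02 in the in situ arrays, and the metalloprotease gene Adam8 rose by 3.72 ± 0.56, while Egf changed by -1.39 ± 0.19 and the sheddase gene Adam17 by -1.29 ± 0.28. Adam17 lies on chromosome 12, whose genes were lower as a group. Its other probe sets changed by -0.34 to -0.19 and were not called. In the FGF, HGF and IGF list 1 of 20 rose and 4 fell (median -0.23). Igf2, a fetal growth factor, read 7.46 and 6.92 against 10.76 and 11.06, although its second probe set changed by 0.19. The binding protein genes Igfbp6 (-2.71 ± 0.28), Igfbp5 (-2.36 ± 0.32) and Igfbp2 (-1.70 ± 0.29), which sequester IGFs, and the receptor gene Fgfr1 (-2.17 ± 0.42) fell. Of 31 Wnt pathway genes 3 rose and 1 fell (median -0.05). Those that rose were the secreted inhibitors Dkk3 (2.62 ± 0.23), Dkk2 (2.04 ± 0.26) and Wif1, the last still dim at 3.47 and 3.58 in the in situ arrays, and the ligand gene Wnt5a, at 11.99 and 12.59 in the normal arrays, read 11.02 and 10.53 in the lesion and fell by 1.52. Among 29 TGF-beta, BMP and Hedgehog genes 3 rose and 2 fell (median 0.02). The ligand genes Bmp2 (-2.98 ± 0.47) and Bmp7 (-0.85 ± 0.18) fell, while the inhibitor of differentiation genes Id3 (2.71 ± 0.39) and Id1 (2.70 ± 0.48), which BMP signals induce, and the BMP antagonist Smad6 (0.93 ± 0.20) rose. The adjusted p of these genes ran from 0.00475 to 0.0478.

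Inflammatory genes rose in part, led by chemokines that attract neutrophils through the receptor Cxcr2. Of 24 chemokine genes 9 rose and 1 fell (median 0.66), and 16 had both in situ arrays above both normal arrays. Cxcl3 read 3.11 and 2.80 in the normal arrays and 8.64 and 8.33 in the in situ arrays, a rise of 46.2-fold (limma, adjusted p = 0.00235). Ppbp, a chemokine first known from platelets, read 5.81 and 4.64 against 10.17 and 10.36, and Cxcl5 read 4.28 and 4.31 against 8.99 and 9.09. The normal arrays were low and the in situ arrays high for each of the 3, and Cxcl2 (2.72 ± 0.27) and Cxcl1 (1.46 ± 0.23), their neighbours on chromosome 5, rose too. Cxcl14, a chemokine of resting epithelia, had a mean of 9.19 ± 0.07 (SD, n = 2) in the normal arrays and 5.74 ± 0.36 (SD, n = 2) in the in situ arrays and fell by 3.44. Of 13 interleukin 1 family genes 3 rose and 1 fell (median 0.62), Il33 being followed by Il1b (2.20 ± 0.23) and Il18 (1.70 ± 0.21), both activated by caspase 1, and the receptor gene Il18r1 falling by 1.67. In the NF-kappaB list, the subunits, inhibitors and induced genes of that factor, 1 of 16 rose and 1 fell (median 0.65). Relb changed by 1.81 ± 0.23 and Tnfaip2, which lies on chromosome 12 with its lower genes, by -1.01 ± 0.15.

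The promoters of Cxcl1, Cxcl2 and Cxcl3 are shown because these genes rose together and share a letter pattern of the NF-kappaB motif, GGGA, any base and TTTCC, searched on both strands over 250 bases before to 50 after each gene start. The sequences are RefSeq's, of build GRCm38.p6, on the plus strand of chromosome 5, at chr5:90890995-90891294 for Cxcl1, chr5:90903649-90903948 for Cxcl2 and chr5:90785851-90786150 for Cxcl3. Capitals mark the match, which begins at -71, -97 and -73 from the gene start.
Cxcl1: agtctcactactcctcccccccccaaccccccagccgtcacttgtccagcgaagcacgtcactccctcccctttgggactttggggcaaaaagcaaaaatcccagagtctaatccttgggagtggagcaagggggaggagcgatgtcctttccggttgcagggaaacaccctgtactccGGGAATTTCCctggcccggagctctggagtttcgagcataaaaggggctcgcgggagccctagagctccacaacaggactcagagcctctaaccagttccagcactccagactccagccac
Cxcl2: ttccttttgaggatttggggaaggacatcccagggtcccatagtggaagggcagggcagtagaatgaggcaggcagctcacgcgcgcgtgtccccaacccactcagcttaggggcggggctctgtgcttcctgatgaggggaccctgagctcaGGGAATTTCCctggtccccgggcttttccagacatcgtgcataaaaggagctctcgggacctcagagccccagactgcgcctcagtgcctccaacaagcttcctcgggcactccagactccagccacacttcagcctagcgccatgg
Cxcl3: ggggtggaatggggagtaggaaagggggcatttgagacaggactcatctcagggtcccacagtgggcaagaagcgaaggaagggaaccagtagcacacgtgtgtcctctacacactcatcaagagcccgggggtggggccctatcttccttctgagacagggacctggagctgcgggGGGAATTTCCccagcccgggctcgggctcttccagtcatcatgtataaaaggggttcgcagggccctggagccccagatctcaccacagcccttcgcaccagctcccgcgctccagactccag
The pattern was present in 3 of the 16 chemokine promoters in the table, those printed, and in 63 of 14452 windows of all tested genes (0.436%). It stood in 0.858% of the windows of risen genes and 0.23% of those of fallen genes. A match describes letters and is not a measured binding site.

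Genes that interferons induce rose in 11 of 22 members. None fell, the median was 0.90, and 17 had both in situ arrays above both normal arrays. Xaf1, a pro-apoptotic interferon target, read 4.62 and 5.82 in the normal arrays and 9.14 and 9.04 in the in situ arrays (3.87 ± 0.39), although its second probe set changed by 0.15. The antiviral GTPase gene Mx1 read 4.54 and 4.99 against 6.93 and 7.55, and Oasl1 (1.82 ± 0.17), Ifit1 (1.69 ± 0.34) and Oasl2 (1.55 ± 0.17), which sense or bind foreign RNA, rose as well (limma, adjusted p from 0.00645 to 0.04 for these 5). The pattern of the interferon response element, TTTC, 2 bases of any kind and TTTC, was present in 10 of 18 promoters of the list against 3.02% of all windows, and in 3.55% of windows of risen and 2.53% of fallen genes. Of the 10 promoters of called genes in the list 4 held it, and those of Xaf1, Oasl1 and Oasl2 did not. Of 18 genes of antigen presentation and the immunoproteasome 5 rose and 0 fell (median 1.06). Beside Ubd these were the class II gene H2-Eb1, at 5.88 and 6.56 against 8.75 and 8.88, the immunoproteasome subunits Psmb10 (2.25 ± 0.19) and Psmb8 (2.10 ± 0.18) and its activator Psme1 (1.56 ± 0.29). Among windows of 31 neighbouring genes with a mean log2 signal above 6 the highest median was 0.76, on chromosome 1 from Ube2t to Ro60. The next highest, picked after the values were seen, was at 0.75 on chromosome 17 from Rab11b to H2-Eb1. It covers part of the major histocompatibility complex and had 23 genes above and 0 below both normal arrays. Of all genes with such a signal 36.3% were above and 23.2% below. Of 21 antimicrobial and acute phase genes 3 rose and 1 fell (median 0.06). Saa3, an acute phase protein, read 10.58 and 12.45 against 7.30 and 6.53, whereas Ltf, lactoferrin (1.72 ± 0.26), Pglyrp1, a peptidoglycan binder (0.96 ± 0.16), and Reg3b, a bactericidal lectin (0.88 ± 0.19), rose. Reg3b was still dim at 4.86 and 4.84 in the in situ arrays. In the complement and coagulation list Procr, the protein C receptor of endothelium, rose by 1.37 ± 0.17 and the other 18 of 19 genes did not pass (median -0.17).

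The enzymes that make and degrade prostaglandin E moved in opposite directions. Ptgs2, the inducible cyclooxygenase, read 5.07 and 3.62 in the normal arrays and 8.10 and 7.80 in the in situ arrays (3.60 ± 0.49), and Ptges, which completes prostaglandin E synthesis, read 7.61 and 7.37 against 9.18 and 9.32 (1.76 ± 0.25). Hpgd, the dehydrogenase that inactivates prostaglandins, read 10.08 and 10.17 against 5.67 and 6.06, a fall of 4.26 on the log2 scale or 19.1-fold (limma, adjusted p = 0.00395). Its second probe set changed by -2.08 and was not called, and the second Ptgs2 probe set changed by 0.41. The other 14 of 17 genes of the list, receptors and lipoxygenases among them, did not pass, and the median was -0.15.

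Lists of genes at the border between epithelium and matrix held a few called members each. Of 32 secreted and membrane proteases 2 rose (6.25%, against 5.74% of all genes) and 1 fell (3.12%, against 3.04%), with a median of 0.31. The shares of this list were thus near those of all genes. Mmp7, matrilysin, a protease of epithelial cells, read 6.77 and 5.75 in the normal arrays and 9.88 and 9.91 in the in situ arrays and rose 12.5-fold (limma, adjusted p = 0.00647). Mmp13, a collagenase, read 3.28 and 3.44 against 5.39 and 5.36, still a low signal, and Klk8, a kallikrein, fell by 1.88. Beside these the invasive arrays read 13.78 and 13.65 for Mmp7 and 13.12 and 12.64 for Mmp13. The AP-1 gene Jun was among the largest rises, and its part in the rises of Mmp7 and Mmp13 was not tested. The promoters of both genes are printed because both rose and both hold the AP-1 pattern TGANTCA, which reads the same on either strand. They lie on the plus strand of chromosome 9 in build GRCm38.p6 of RefSeq, at chr9:7691840-7692139 for Mmp7 and chr9:7272264-7272563 for Mmp13, and capitals mark the match, at -63 and -35 from the gene start.
Mmp7: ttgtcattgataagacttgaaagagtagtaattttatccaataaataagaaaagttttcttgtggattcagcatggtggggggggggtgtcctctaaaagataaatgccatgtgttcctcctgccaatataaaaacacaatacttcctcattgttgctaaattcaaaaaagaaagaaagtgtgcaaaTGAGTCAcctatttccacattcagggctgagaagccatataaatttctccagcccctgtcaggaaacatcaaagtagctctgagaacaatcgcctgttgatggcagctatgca
Mmp13: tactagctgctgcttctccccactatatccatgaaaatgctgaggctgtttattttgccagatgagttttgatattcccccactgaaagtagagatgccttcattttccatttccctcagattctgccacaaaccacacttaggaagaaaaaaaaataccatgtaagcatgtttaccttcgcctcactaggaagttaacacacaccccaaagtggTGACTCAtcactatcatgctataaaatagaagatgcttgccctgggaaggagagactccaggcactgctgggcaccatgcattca
The AP-1 pattern was in 5 of 18 protease promoters of the table, with Mmp3, Mmp10 and Plaur holding it and not called, and in 6.33% of all windows, 6.37% of windows of risen genes and 5.52% of those of fallen genes. Of 22 protease inhibitors 4 rose and 2 fell (median -0.05), with Csta1 first, the intracellular serpins Serpinb1a (1.65 ± 0.20), Serpinb6b (1.61 ± 0.34) and Serpinb8 (1.14 ± 0.23) after it, and Timp2, an inhibitor of matrix metalloproteases, falling by 1.21. Among 28 integrin, laminin and basement membrane genes 3 rose and 0 fell (median 0.56). Col17a1, the hemidesmosome collagen of basal cells, read 9.57 and 8.73 against 11.63 and 11.91, and the basement membrane collagens Col4a1 (3.20 ± 0.61) and Col4a2 (2.61 ± 0.34), also made by endothelium, rose. Of 37 cadherin, claudin, desmosome and gap junction genes 6 rose and 1 fell (median 0.35). Among the claudins of tight junctions Cldn3 rose by 3.41 ± 0.29 to 9.69 and 9.32, Cldn8 read 12.77 and 11.47 against 9.02 and 9.24, and Cldn1 rose by 2.75 ± 0.59, with its other probe sets at -0.08 to 0.29. Pkp1, a desmosomal plakophilin, rose by 1.68 ± 0.31, and Cdh5 is the cadherin of endothelium. Of 21 S100 and annexin genes 5 rose and 1 fell (median 0.82), S100a14 (2.77 ± 0.32) and S100g (2.15 ± 0.27), calcium-binding proteins of epithelia, S100a4 (1.78 ± 0.27), Anxa8 (1.58 ± 0.26) and S100a10 (1.41 ± 0.21), whose other probe sets changed by -0.45 to 1.84.

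Of 41 transcription factors of urothelium and other epithelia 10 rose and 0 fell (median 0.43), while 31 did not pass, Foxa1 and Gata3 among them. Both in situ arrays lay above both normal arrays for 19 of the 41, where 29.3% of all genes did. They lay below for 10 of the 41, a share near the 25.1% of all genes. Sox2, a factor of foregut and stem cells, read 5.22 and 5.45 in the normal arrays and 8.76 and 8.20 in the in situ arrays, and Sox9, a progenitor factor, read 5.72 and 6.07 against 8.37 and 8.15. Isl1, a homeodomain factor of the developing bladder and other organs, rose by 2.03 ± 0.21, Tfap2a, an ectodermal factor, by 1.82 ± 0.25, and Bhlhe40, a repressor induced by hypoxia and by the clock, by 2.49 ± 0.23 from 7.57 in each normal array (limma, adjusted p from 0.00515 to 0.0146 for these 5). In the progenitor and tumour cell surface list 6 of 21 rose and 0 fell (median 0.42), where Sox2 and Sox9 counted again beside Aldh1a3, a retinaldehyde dehydrogenase (3.21 ± 0.64), Ly6e (2.08 ± 0.21) and Cd24a (1.41 ± 0.26), surface proteins anchored by lipid. Of 44 homeobox genes 2 rose and 1 fell (median -0.03), the hindlimb factor Pitx1 by 2.18 ± 0.22 and Meis2 by 1.41 ± 0.24 upwards and Meis1, a Hox cofactor, by -1.70 ± 0.24. Of 26 nuclear receptor genes Esr1, the oestrogen receptor, rose from 7.91 and 9.01 to 10.44 and 10.63, and the other 25 did not pass (median 0.14). Among 18 clock genes Bhlhe40 was the 1 that passed (median 0.04). Of 37 semaphorin, ephrin, slit and netrin genes 5 rose and 2 fell (median 0.03). Sema5a, a membrane semaphorin, rose by 3.41 ± 0.46, Nrp1, a receptor for semaphorins and VEGF, by 2.90 ± 0.26, Sema3d by 1.53 ± 0.20 and Efna4 by 1.44 ± 0.19, and the plexin gene Plxna2 fell by 1.35. The second Sema3d probe set changed by 0.04 and was not called. Of 26 neuronal and neuroendocrine genes 2 rose and 1 fell (median -0.11), Nptx1 and Gpm6b (1.13 ± 0.17) against Gpm6a.

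Lists of transport genes held called members in both directions. Of 44 water, urea and ion transport genes 4 rose (9.09%, against 5.74% of all genes) and 4 fell (9.09%, against 3.04%), with a median of -0.02. Scnn1g, the gamma subunit of the epithelial sodium channel, read 9.43 and 9.96 in the normal arrays and 6.46 and 6.56 in the in situ arrays and fell by 3.19 or 9.1-fold (limma, adjusted p = 0.00438). The beta subunit gene Scnn1b read 7.46 and 9.07 against 5.71 and 5.79, and the potassium channel gene Kcnj15 read 9.89 and 9.74 against 7.04 and 7.07. These 3 genes were lower in both in situ arrays, while the alpha subunit gene Scnn1a read 7.03 and 7.45 against 7.23 and 7.03 and did not pass. The water channel gene Aqp1, of endothelium among other cells, read 6.11 in each normal array and 9.82 and 9.69 in the in situ arrays. Aqp4 rose by 2.58 ± 0.56 beside Clic6. Of 33 glucose, amino acid and metal transporters 1 rose and 2 fell (median 0.01), the zinc importer Slc39a4 by 2.28 ± 0.20, the sodium-glucose transporter Slc5a1 by -2.59 ± 0.22 and the arginine transporter Slc7a1 by -1.25 ± 0.20. Of 24 mucin and glycan enzyme genes 3 rose and 2 fell (median 0.22). The fucosyltransferase Fut2 (1.94 ± 0.30) and the sialyltransferases St3gal4 (1.46 ± 0.31) and St6gal1 (0.96 ± 0.18) rose, and the branching enzyme gene Gcnt1 (-1.43 ± 0.23) and the membrane mucin gene Muc16 (-1.29 ± 0.23) fell. The second probe set changed by -0.00 for Fut2 and -0.02 for St6gal1, and neither was called.

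Metabolic lists split between glycolysis and sterol synthesis. Of 25 glycolysis and hypoxia genes 6 rose and 0 fell (median 1.01), and 17 had both in situ arrays above both normal arrays. Hk2, the inducible hexokinase, read 7.59 and 7.71 in the normal arrays and 9.66 and 10.07 in the in situ arrays, and Tpi1, triosephosphate isomerase, read 11.02 and 10.32 against 12.63 and 12.73. Epas1, a hypoxia-inducible factor also made by endothelium (2.02 ± 0.32), Pfkl, a phosphofructokinase (1.78 ± 0.37), and Pgk1 (1.60 ± 0.28) rose with them. Of 38 cholesterol and fatty acid genes 1 rose and 8 fell, the median was -0.48, and 19 had both in situ arrays below both normal arrays. Scd1, a fatty acid desaturase, read 8.49 and 7.78 against 5.41 and 5.81. Insig1, an anchor protein of sterol sensing, read 9.32 and 8.96 against 7.11 and 6.95, a fall of 2.11 (limma, adjusted p = 0.00637). The cholesterol synthesis genes Lss (-1.86 ± 0.38) and Hsd17b7 (-1.77 ± 0.16) fell. Other probe sets, none of them called, changed by -0.38 for Scd1, -1.79 to -0.53 for Lss and -0.76 to -0.08 for Hsd17b7. In this list the exception upwards was Stard4, a cholesterol carrier, by 1.88 ± 0.25. The pattern TCACNCCAC of the sterol response element was found in 1 of 28 promoters of this list, that of Hmgcs1, against 1.18% of all windows, 1.23% of risen and 1.84% of fallen genes. Among 35 glutathione and oxidative stress genes 6 rose and 0 fell (median 0.52). Gpx2, the glutathione peroxidase of epithelia, read 6.41 and 6.99 against 10.92 and 10.75, and Gsto1 (1.66 ± 0.33), Gclm (1.66 ± 0.27), the modifier subunit of glutathione synthesis, Gpx1 (1.47 ± 0.21) and Txnrd1 (1.38 ± 0.26) rose. The antioxidant pattern TGACNNNGC, which can share bases with the AP-1 pattern, was in 7 of 29 promoters of the list against 14.2% of all windows, 15% of risen and 15.6% of fallen genes. Of 40 cytochrome P450, alcohol and retinoid enzymes 3 rose and 0 fell (median -0.11), Aldh1a3 with Cbr3 (1.89 ± 0.23) and Aldh3b1 (1.13 ± 0.17). In the serine, one-carbon and polyamine list Shmt1 rose by 1.25 ± 0.16 and the other 23 of 24 genes did not pass (median 0.30).

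Of 28 proteasome subunit genes 6 rose and 0 fell, the median was 0.92, and 23 had both in situ arrays above both normal arrays. Psmc5, an ATPase of the regulatory cap, read 9.79 and 9.11 in the normal arrays and 11.11 and 11.30 in the in situ arrays (1.75 ± 0.26), and Psmd4 (1.53 ± 0.20), Psmc3 (1.32 ± 0.18), Psmb6 (1.29 ± 0.18) and Psmb5 (1.24 ± 0.22) rose too (limma, adjusted p from 0.0137 to 0.0297 for these 5). Of 31 Myc family and ribosome biogenesis genes 4 rose and 0 fell (median 0.56), which were nucleolin, Ncl, at 11.03 and 10.44 against 12.39 and 12.52, Nop16 (1.68 ± 0.20), fibrillarin, Fbl (1.28 ± 0.18), and Polr1b, of RNA polymerase I (1.01 ± 0.17). Among 19 cytosolic tRNA synthetases Vars rose by 1.37 ± 0.21 and 18 did not pass (median 0.51), and of 36 splicing factors 3 rose and 0 fell (median 0.28, 16 with both in situ arrays above both normal arrays), U2af1 (1.60 ± 0.27), Srsf9 (1.19 ± 0.18) and Snrpb (1.08 ± 0.15). The mean signal of the 32 chaperone and unfolded protein genes was 10.34 and 9.78 in the normal arrays and 10.41 and 10.47 in the in situ arrays, so that normal array 1 was near the lesion. Of these 3 rose and 1 fell (median 0.23), the heat shock genes Dnajb1 (1.28 ± 0.17) and Hspa1b (0.99 ± 0.20) and Sdf2l1 (0.90 ± 0.17) upwards and Herpud1 (-1.04 ± 0.19) downwards.

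**Figure D3:**
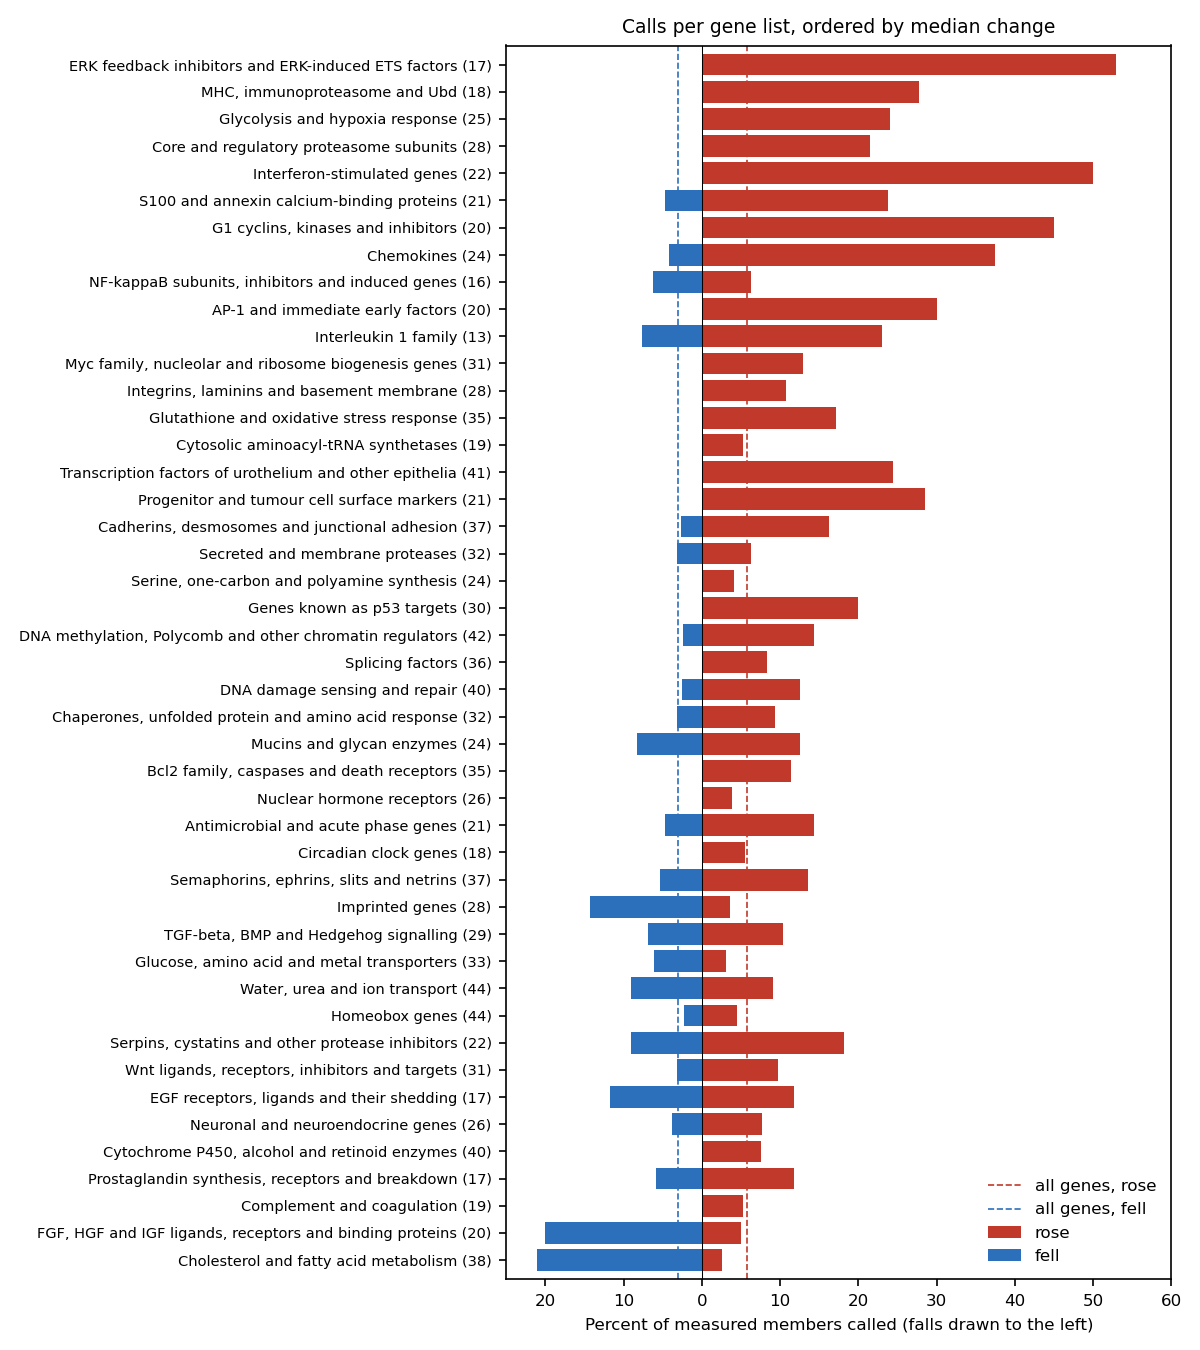
Percent of the measured members of each pathway list, without the cell type markers and the keratin, uroplakin and mitosis genes, that rose (red, to the right) or fell (blue, to the left), with the number measured in brackets and lists ordered by median change; dashed lines give the share over all 18193 genes (5.74% rose, 3.04% fell). Among these pathway lists the ERK feedback list stands at the top with 52.9% risen and the cholesterol and fatty acid list at the bottom. The lists were chosen with earlier results of these data known.

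Of 28 imprinted genes, which are read from 1 parental copy, 1 rose and 4 fell (median 0.03), the rise being Igf2 and 3 of the falls lying at a locus on chromosome 12. Meg3 read 12.45 and 13.55 in the normal arrays and 7.31 and 7.58 in the in situ arrays, a fall of 5.56 or 47.1-fold (limma, adjusted p = 0.0151), and 9 of its other 10 probe sets were called as well. Rian and Mirg, noncoding RNAs of the same locus, read 7.85 and 9.90 against 5.65 and 5.31 and 7.19 and 7.20 against 5.82 and 5.70. The fourth fall was Plagl1, a zinc finger gene on chromosome 10 (-1.59 ± 0.20). Dlk1, the coding gene of the chromosome 12 locus, is expressed from the other parental copy and changed by 0.12.

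As the most extreme of the 19 autosomes and the X chromosome, chromosome 12 was picked after the values were seen. Its genes, with the Meg3 locus counted among them, were lower as a group. Of its 622 genes 58 fell (9.32%, against 3.04% of all genes) and 8 rose (1.29%, against 5.74%). Among its 405 genes with a mean log2 signal above 6 the median difference from the normal mean was -0.28 in in situ array 1 and -0.23 in in situ array 2, where all 11644 such genes had 0.10 and 0.12. Both in situ arrays lay below both normal arrays for 185 of them (45.7%, against 23.2% of all such genes) and above for 52 (12.8%, against 36.3%). The normal arrays differed from each other by a median of 0.11 on this chromosome. The shift was spread along it, with medians of -0.36, -0.20, -0.42, -0.22 and -0.13 in 5 successive stretches of 81 genes. Of windows of 31 neighbouring genes with a mean log2 signal above 6, taken without overlap, the lowest 4 were on chromosome 12. They ran from Plekhh1 to Numb (-0.78), Gstz1 to Trip11 (-0.62), Acot2 to Erg28 (-0.46) and Hs1bp3 to Adam17 (-0.41). Genes with large falls, named after their values were seen, were Acot1, a thioesterase for fatty acyl chains, at 8.83 and 9.11 against 5.99 and 5.95, Smoc1, a secreted matrix protein, at 10.40 and 10.22 against 7.38 and 7.47, and Pigh, an enzyme of lipid anchors, at 10.52 and 10.75 against 8.35 and 8.18. Going the other way were Gpx2, Rrm2, a subunit of ribonucleotide reductase (2.92 ± 0.16), and Actn1, an actin crosslinker (2.46 ± 0.22). In the invasive arrays, set against the same normal arrays, the medians were -0.29 and -0.27. Chromosome 17 was highest, with a median of 0.27 and 47.1% of genes above both normal arrays. Without in situ array 1 or 2 limma called 0 genes of chromosome 12 in either direction and its median over all genes was -0.19 or -0.18, against -0.18 in the fit of all arrays. Without normal array 1 its counts were 106 falls (17%, against 8.49% of all genes in that fit) and 27 rises. Without normal array 2 they were 115 (18.5%, against 6.99%) and 17. Without the 2 arrays that carried both Xist and Y-linked signal the median of chromosome 12 was -0.20. The median kept its sign in each of the 17 alternatives (-0.28 to -0.16). Several of these left out only invasive arrays or altered only the variance or the threshold. Those kept the estimates of the fit of all arrays by construction and add no support. Copy number was not measured.

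**Figure D4:**
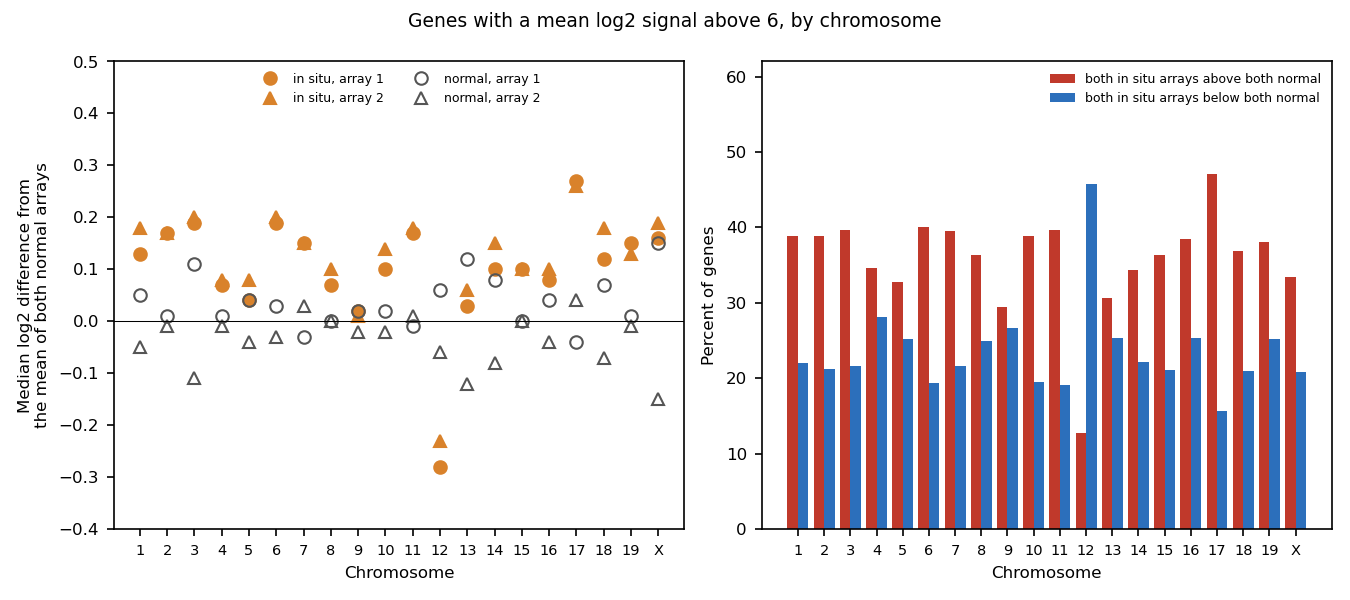
Left, the median log2 difference of each array from the mean of both normal arrays, by chromosome, over genes with a mean log2 signal above 6; right, the percent of these genes with both in situ arrays above (red) or below (blue) both normal arrays. Chromosome 12 stands apart with in situ medians of -0.28 and -0.23 and 45.7% of genes below.

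Markers of other cell types moved in opposite directions between the groups. Of 20 endothelial markers 13 rose and 0 fell (median 1.52), and 19 had both in situ arrays above both normal arrays. Their mean signal was 5.68 and 5.51 in the normal arrays and 7.24 and 7.23 in the in situ arrays. Vwf, von Willebrand factor, read 4.62 and 4.52 against 8.10 and 7.95, Plvap, of fenestrated vessels, 6.38 and 6.27 against 9.47 and 9.03, and Emcn, endomucin, rose by 2.88 ± 0.28. Mmrn2 (2.42 ± 0.26) and Pecam1, at 4.51 and 4.11 against 5.71 and 6.07, rose as well. These markers moved with Col4a1, Col4a2, Aqp1, Epas1, Nrp1, Procr and Gpihbp1, which endothelium also expresses, and their part in those rises was not tested. Of 10 pericyte markers 2 rose and 0 fell (median 0.47), Pdgfrb (2.08 ± 0.44) and Mcam (1.68 ± 0.36). The second Pdgfrb probe set changed by 0.07 and was not called. Of 18 macrophage markers 3 rose and 0 fell (median 1.09), with mean signals of 6.90 and 6.85 against 8.02 and 8.06. Cd53, a leukocyte tetraspanin, read 7.38 and 6.19 against 11.18 and 11.46, Aif1 rose by 2.16 ± 0.43 and Ctss, a lysosomal protease, by 1.88 ± 0.27. The defining markers Cd68, at 6.25 and 5.40 against 6.82 and 7.01, and Csf1r, at 8.02 and 9.40 against 9.80 and 9.81, were higher in both in situ arrays and did not pass. The macrophage markers moved with the interferon and antigen presentation genes and Il1b, and their part was not tested.

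Of 16 neutrophil markers 3 rose (median 0.45), Ltf, Clec4d (1.22 ± 0.26) and Stfa2l1 (1.03 ± 0.16), the last still dim at 4.92 and 4.91 in the in situ arrays. The mean signal of the 16 was 5.94 and 5.39 against 6.37 and 6.31. Of 10 mast cell markers 2 rose, the tryptase gene Tpsab1 (1.99 ± 0.25) and Cpa3 (1.04 ± 0.20), with a median of 0.39. None of 14 T and NK cell markers passed (median -0.19), Cd2 being the farthest from 0 at -0.63 ± 0.26, and none of 11 B and plasma cell markers (median -0.39). Ms4a1, a B cell marker, was at 4.96 and 9.22 in normal arrays 1 and 2, beside 4.81 and 4.72 in the in situ arrays, so it was high in 1 array. Of 14 mesothelial markers 0 rose and 3 fell (median -0.94), and 12 had both in situ arrays below both normal arrays, with mean signals of 8.06 and 8.21 against 6.87 and 6.95. Gpm6a read 7.71 and 9.12 against 2.66 and 2.87, Cav1, of caveolae, fell by 1.34 and Muc16 by 1.29, while the defining markers Msln (7.76 and 7.90 against 7.03 and 6.92) and Wt1 (5.88 and 6.55 against 5.26 and 5.17) did not pass. Of 15 smooth muscle markers 3 rose and 1 fell (median -0.86), Smtn (2.50 ± 0.20), Tpm2 (1.51 ± 0.16) and Casq2 (0.89 ± 0.18) against Synm (-1.63 ± 0.16). Myh11, the myosin of smooth muscle, read 8.87 and 5.77 against 4.97 and 4.72 and did not pass. Of 22 fibroblast markers 1 rose and 1 fell (median -0.34), Sparc (2.49 ± 0.42) and decorin, Dcn, with a mean of 11.39 in the normal arrays and 6.41 in the in situ arrays, while Col1a1, at 7.07 and 6.85 against 6.71 and 6.60, did not pass. Other Sparc probe sets changed by -0.39 to 2.23 and were not called. The medians of these 3 lists were below 0 beside the falls of Ttr, Prg4, Saa3, Fhl1, the Igfbp genes and Meg3, and their part in those falls was not tested. Of 10 nerve and glia markers Mbp (1.54 ± 0.24) rose and Gfra3 (-1.14 ± 0.20) fell (median -0.01). None of the 4 erythroid markers (median -0.24, Alas2 farthest from 0 at -0.81), the 6 adipocyte markers (median -0.03, Pck1 at -0.27), the 11 skeletal muscle markers (median -0.04, Tnnc2 at -0.54) and the 11 male accessory gland markers (median -0.01, Mme at -0.41) passed. Of 10 sex-linked genes 1 rose, the X-linked Eif2s3x (1.27 ± 0.19), and the 3 Y-linked genes named above fell (median 0.08).

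**Figure D5:**
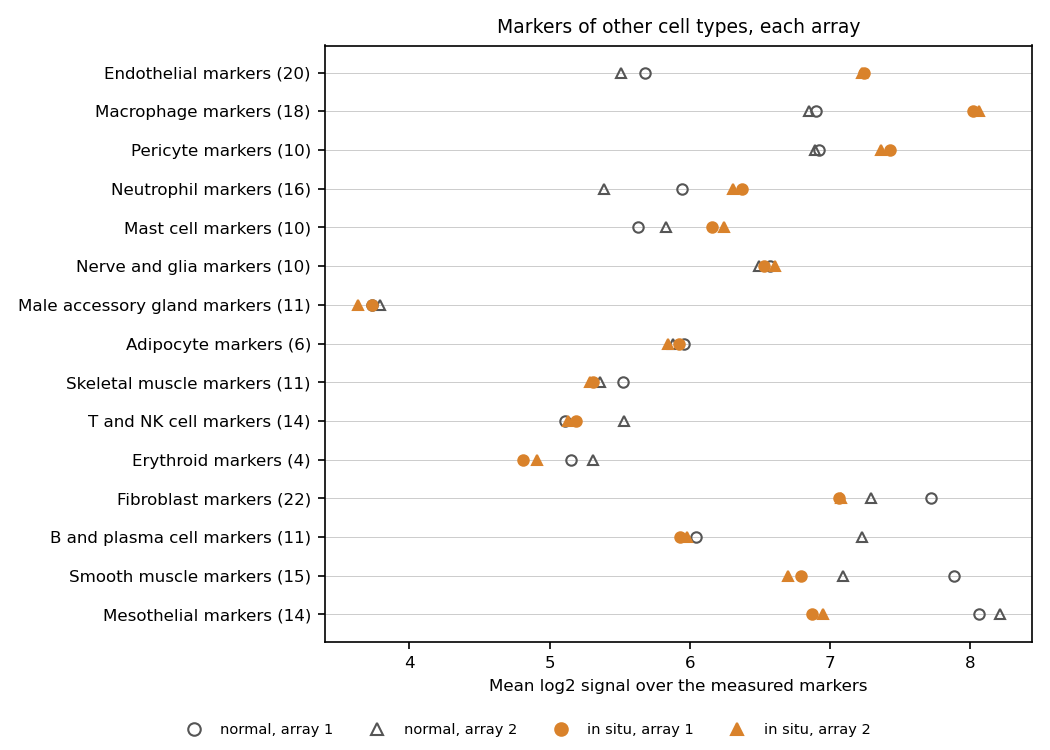
Mean log2 signal over the measured markers of each cell type in each normal array (open symbols) and each in situ array (filled symbols), with the number of markers in brackets. Endothelial markers stand at 7.23 and 7.24 in the in situ arrays against 5.51 and 5.68, and mesothelial markers at 6.87 and 6.95 against 8.06 and 8.21.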

How the data were processed

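The authors deposited log2 expression values of Affymetrix mouse expression arrays, made with RMA, and Partek and RMA are named in the submitters' processing notes without a version. RMA corrects background, sets the arrays to 1 distribution and summarises probes, so array medians lay between 6.07 and 6.14 and a general shift in RNA content cannot be seen. The authors' deposited table of signed fold changes is a score between group means, and all 45101 values of the in situ comparison lay within a relative tolerance of 0.01 of those from the log2 values. It was used for no other result. The genome build behind the arrays is not given in the sources used here.

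Of 45101 probe sets 34958 had 1 symbol in the platform annotation, 932 several and 9211 none. Without controls 34945 were tested by name, and 34741 were found by Entrez ID in the RefSeq table. For each of 18193 genes the probe set with the highest mean over the 6 arrays was kept, which leaves 9010 genes with others unused. Group means of the 3 groups of 2 arrays were fitted with limma 3.58.1 in R 4.3.3 (3 residual and 2.69 prior degrees of freedom), and adjusted p is Benjamini-Hochberg's over all genes. The number of arrays limits the precision. Nothing in the labels says that the arrays of a group came from separate animals, so p-values measure no more than the scatter among the arrays, and that scatter may be technical. The fit was tested on simulated data, drawn independently with 1 spread per gene for all groups. It recovered 13.4% of planted changes of 1 log2 unit, 88.1% of 2 units and 95.5% of 3 units, with 6 false calls among 137. A gene that did not pass may therefore still have changed 2-fold.

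Named genes were the 20 largest rises and falls without overlap, the 10 widest gaps each way, genes under 5 in 1 group and over 8 in the other, and up to 5 called members per list, or 2 uncalled where none was called. Provisional symbols, antigen receptor segments and keratin, uroplakin and mitosis genes were passed over in the first 3 of these. Other genes, those of chromosome 12 among them, were named after their values were seen. The members and the 64 lists were chosen with earlier results of these data known. Promoters span 250 bases before to 50 after the gene start. The altered genes themselves were not analysed here. There were 17 alternatives, to samples, probe sets, filter, moderation and scaling. The title numbers did not pair the arrays.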

Additional observations from a re-analysis of the deposited data

How the results depend on the processing

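The counts rest on the spread between paired arrays. Over the fits that left out 1 array limma called from 0 to 4196 genes, with 0 to 2652 rises and 0 to 1544 falls, against 1597, 1044 and 553 from all 6 arrays, and the lower end came from leaving out either in situ array. With the in situ arrays averaged to 1 sample it called 0 genes (2320 at an unadjusted p under 0.05), and a lone in situ sample was taken to vary like the other groups. The 4 arrays alone gave 947 genes (649 rises, 298 falls), holding 55.3% of the genes called from all 6. Without the 2 arrays that carried both Xist and Y-linked signal it called 6352 (3526 and 2826). That fit held 1 normal and 1 invasive array, so its residual spread came from the in situ pair alone. The log2 difference within that pair had a standard deviation of 0.22, against 0.69 for the normal and 0.42 for the invasive pair. The count of 6352 rests on that small spread, and the part of sex in it was not tested. Testing every probe set on its own gave 869 fallen genes. The fit with the title number as a replicate block called 1146 genes, and the differences between arrays 1 and 2 correlated at -0.39 between the normal and in situ groups and at 0.37 and -0.34 for the normal and in situ groups with the invasive group, so the numbers did not pair the arrays. Counts under the filter on dim genes, the other variance settings, centring, the mean of probe sets and the minimum of 1 log2 unit ran from 1315 to 1794.

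Of 248 genes named by rule, 236 were called. None of the 236 changed direction under any of the 17 alternatives. For most alternatives this was fixed in advance. The groups of a called gene did not overlap, so leaving out arrays could not reverse it, and other settings kept the same estimates. Only the fits on other probe sets or on centred arrays could have changed a direction. The 4 arrays alone left the call of 200 of the 248 as it was, the block 219 and the mean of probe sets 221, while without either in situ array all 236 lost theirs. Some uncalled genes changed sign when 1 array was left out. Their changes ran from -0.45 to 0.31 for Fos, -0.62 to 0.47 for Foxa1, -1.10 to 0.58 for Pparg, -0.58 to 0.07 for Pbsn, -1.05 to 0.04 for Tnni2, -0.32 to 0.10 for Scnn1a and -0.12 to 6.40 for Xist. Pbsn was at 0.07 and Scnn1a at 0.10 without the 2 arrays with both sex signals.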
